A study of Mus musculus with 6 samples.

Results

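The ERBB family of receptor tyrosine kinases and its ligands were followed in luminal mammary epithelial cells that differ in *Sox9* reporter level. The members are the receptors *Egfr*, *Erbb2*, *Erbb3* and *Erbb4* and the ligands *Areg*, *Ereg*, *Hbegf*, *Tgfa*, *Btc* and *Nrg1*, chosen by gene symbol. Of these 10 genes, 9 (4 receptors and 5 ligands) had a probe set named in the annotation used here, each had 1 probe set, and *Areg* was not analysed here. They are 9 of 19505 named genes. Both sorts came from Sox9-GFP;C3(1)/Tag female mice of about 3 months: Sox9-GFP high luminal cells and Sox9-GFP low luminal cells, with 3 arrays each, from the glands of 3 animals. All cells of both sorts therefore carry the same alleles, a GFP reporter transgene for *Sox9* and SV40 large T antigen under the C3(1) promoter, which drives tumour formation in mammary epithelium. No untreated or transgene-free group was part of these arrays. The comparison asks which receptors and ligands differ with the *Sox9* reporter level within this one model.

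ERBB receptors sit in the cell membrane, pair up when a ligand binds and pass the signal on through phosphorylated tail tyrosines to the RAS-ERK, PI3K-AKT and STAT5 routes. The ligands are made as membrane-bound precursors that are cut free by metalloproteases. They fall into those that bind EGFR, those that bind both EGFR and ERBB4, and the neuregulins, which bind ERBB4 and only some of them ERBB3. In the mammary gland, EGFR and amphiregulin are known for ductal outgrowth in puberty, and ERBB4 for alveolar growth and milk production together with STAT5.

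The deposited values are log2 per probe set on an array, so 1 unit is a doubling. The array medians lay between 5.15 and 5.21, and arrays correlated at 0.992 to 0.994 (Pearson's r over all probe sets) within and 0.979 to 0.988 between the sorts. *Sox9*, the gene behind the sort, was at 14.42, 13.77 and 14.46 on the Sox9-GFP high arrays against 13.36, 12.82 and 13.44 on the Sox9-GFP low arrays. All 8 luminal epithelial markers lay above the array median on all arrays, with a summed level (log2 of their summed linear values) of 19.26 to 19.49 in Sox9-GFP high and 19.26 to 19.52 in Sox9-GFP low cells. The brightest markers set this sum, and 1 of the 8, the keratin *Krt19*, was lower in Sox9-GFP high cells, at -1.65 (adjusted p = 0.00130 from limma). All 6 immune markers lay below it on all arrays (6.51 to 6.70 and 6.52 to 6.75). Arrays of sorted bulk RNA cannot tell fewer cells of a type from less RNA per cell, and where the labels tie no array to an animal the p-values measure only the spread between these arrays, which may be technical.

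Of the receptors, *Erbb4* alone passed the test, at a higher level in Sox9-GFP high cells, and *Erbb2*, *Erbb3* and *Egfr* did not pass. Of the ligands, *Hbegf* passed as higher when the array number was taken as a replicate block, and *Nrg1* had the largest difference in the other direction without passing. In limma with Benjamini-Hochberg adjustment over all 22206 probe sets and a threshold of 0.05, 1 of 9 members (11.1%) was higher, beside 888 probe sets (4.0%), and 0 of 9 were lower, beside 711 probe sets (3.20%). Under the blocked fit 2 of 9 were higher, beside 1404 probe sets (6.32%), and 0 were lower, beside 1108 (4.99%). Every Sox9-GFP high array lay above every Sox9-GFP low array for 1 member, *Erbb4*, as for 14.1% of all probe sets, and below for 2 members, *Egfr* and *Nrg1*, as for 11.4%. With 9 members these shares rest on single genes.

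**Figure D1:**
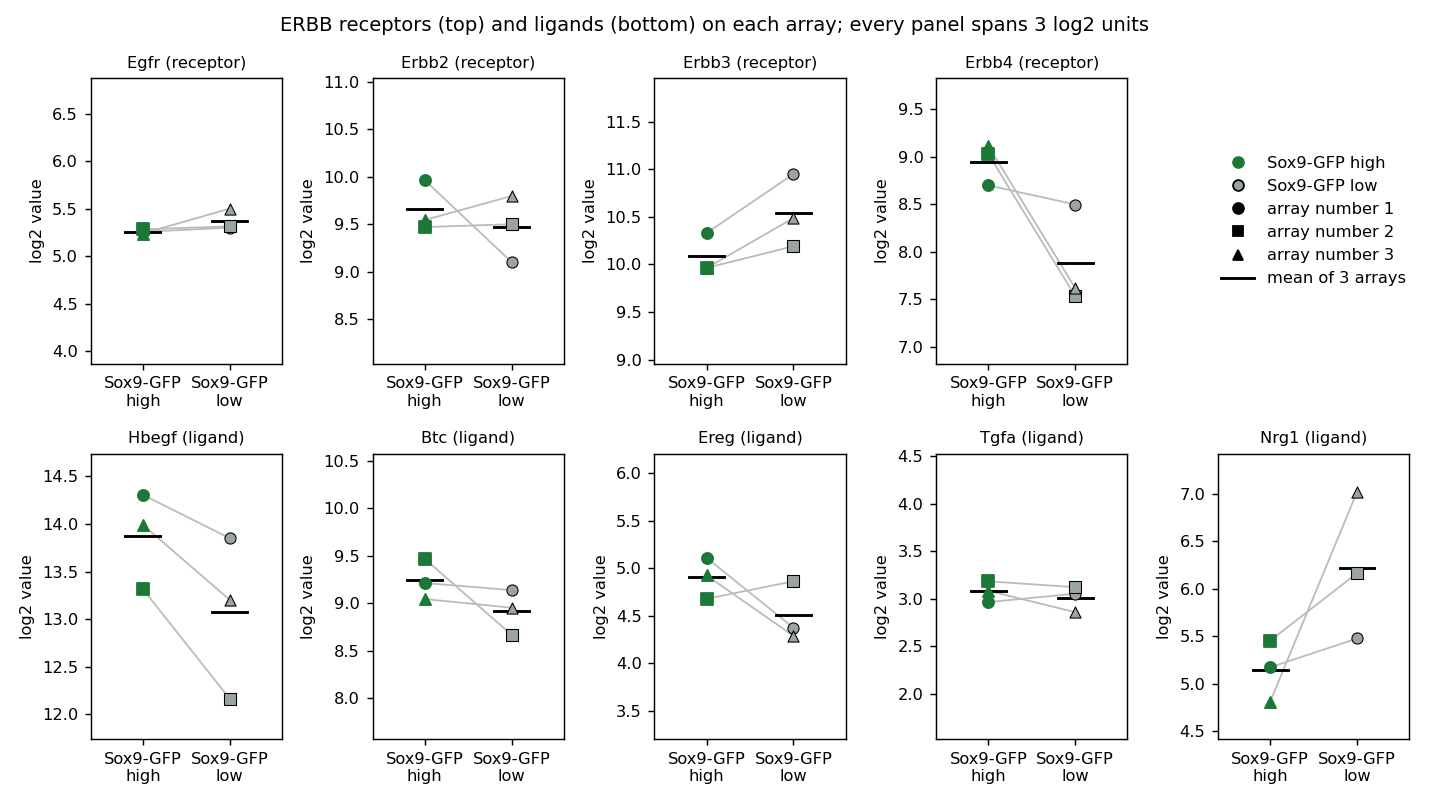
Log2 value (vertical axis) of the 9 measured members on each array, with the 4 receptors in the top row and the 5 ligands in the bottom row; points are arrays, their shape is the array number, grey lines join arrays of the same number, and black bars are means of 3 arrays. *Erbb4* lies between 8.70 and 9.11 in Sox9-GFP high cells and between 7.53 and 8.50 in Sox9-GFP low cells, and all 3 lines of *Hbegf* slope the same way although the sorts overlap.

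*Erbb4* encodes the receptor for neuregulins that also binds HB-EGF, betacellulin and epiregulin. Its log2 values were 8.70, 9.03 and 9.11 on the Sox9-GFP high arrays 1, 2 and 3 and 8.50, 7.53 and 7.62 on the Sox9-GFP low arrays. The 3 Sox9-GFP high arrays were all above the Sox9-GFP low arrays, and Sox9-GFP low array 1 lay close below them, apart from the other two of its sort. The means were 8.95 ± 0.22 in Sox9-GFP high and 7.88 ± 0.53 in Sox9-GFP low cells (SD, n = 3 each), a difference of 1.06 on the log2 scale (standard error 0.26, 95% confidence interval 0.48 to 1.65) or 2.09-fold, with an adjusted p of 0.0386 from limma. An exact permutation test gave a two-sided p of 0.10, the smallest that 3 arrays against 3 allow.

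The call of *Erbb4* was close to the threshold. In each of 9 reduced fits, 1 array or both arrays of 1 number were dropped, and *Erbb4* passed in 2 of them, with a difference between 0.85 and 1.50 throughout. The adjusted p from limma was 0.0579, 0.101 and 0.128 without Sox9-GFP high replicate 1, 2 or 3, 0.123 and 0.121 without Sox9-GFP low replicate 2 or 3, and 0.226 and 0.296 without both arrays of number 2 or number 3. It was 0.00704 without Sox9-GFP low replicate 1 and 0.0107 without both arrays of number 1. Sox9-GFP high cells also had lower levels of 6 of 8 markers of ER-negative luminal progenitors (summed log2 level 17.40 to 17.55 in Sox9-GFP high and 18.36 to 18.57 in Sox9-GFP low cells, all 8 above the median of every array). Of the other 2 markers, *Kit* had a difference of 0.44 with no overlap between the sorts (adjusted p = 0.150) and *Aldh1a3* of -0.03. Of 7 markers of ER-positive luminal cells, 1 was higher, *Ly6d*, at 1.67 (adjusted p = 0.0412), and 0 were lower without a block, while *Cited1*, at -1.24, was lower with it (adjusted p = 0.0893 without and 0.00322 with the block). The summed level of these 7, which *Ly6d* carried, was 13.97 to 14.05 in Sox9-GFP high and 11.56 to 13.36 in Sox9-GFP low cells. All of the 7 but *Ly6d* had a negative difference, and the median of the 7 was -0.28. *Esr1*, the estrogen receptor, was below the array medians on all arrays. The part of these shifts in the result for *Erbb4* was not tested.

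The promoter of *Erbb4* is shown because *Erbb4* is the one member called without a block and the cells were sorted on a reporter for a SOX factor. Windows of 250 bases before and 50 bases after the transcript start, from RefSeq's table for GRCm38.p6, were searched for 6 of the 10 members. These were *Egfr*, *Erbb2*, *Erbb4*, *Areg*, *Tgfa* and *Btc*, and the other members, *Hbegf* among them, were not searched. The window of *Erbb4* is chr1:69108010-69108309 on the minus strand and is printed 5′ to 3′ along the gene, with capitals marking the match to the letters AACAAT, a core recognised by SOX factors, read on the opposite strand.
*Erbb4* promoter: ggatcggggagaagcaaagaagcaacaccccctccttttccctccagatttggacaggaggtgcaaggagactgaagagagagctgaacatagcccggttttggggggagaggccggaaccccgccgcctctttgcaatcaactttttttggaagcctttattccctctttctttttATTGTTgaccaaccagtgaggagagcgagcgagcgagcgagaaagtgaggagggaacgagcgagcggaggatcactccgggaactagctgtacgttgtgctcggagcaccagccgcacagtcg
The match starts at position -73 from the transcript start. Both strands of the 6 windows were searched for the SOX-type letters AACAAT as well as ACAAAG and also ACAATG, and for the AP-1 letters TGANTCA, where N is any base, and these letters were chosen after the sequences and values had been seen. This was the only match in the 6 windows. AACAAT occurs in 10.7% of all 32851 RefSeq promoter windows of this length, any of the 3 SOX-type words in 33.2% and the AP-1 letters in 7.81%, so a single match is a description of the letters and not of a bound site.

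*Erbb3* encodes a receptor with a weak kinase that signals through its partner and docks PI3K. It was at 10.33, 9.96 and 9.96 on the Sox9-GFP high arrays and at 10.95, 10.19 and 10.49 on the Sox9-GFP low arrays. The Sox9-GFP high array was the lower one in each of the 3 numbers, but Sox9-GFP high array 1 lay above Sox9-GFP low array 2. The difference was -0.46 (standard error 0.22, 95% confidence interval -0.96 to 0.04, adjusted p = 0.290 from limma). With the replicate block the interval was -0.84 to -0.07, below 0, but the difference did not pass either (adjusted p = 0.133).

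*Erbb2* encodes the receptor that has no known ligand and is the favoured partner of the others. Its values were 9.96, 9.47 and 9.54 in Sox9-GFP high cells against 9.10, 9.50 and 9.80 in Sox9-GFP low cells. The sorts overlapped throughout, with array number 1 going one way (0.86 higher in Sox9-GFP high) and numbers 2 and 3 the other (-0.03 and -0.25). The mean difference was 0.19 (95% confidence interval -0.31 to 0.69, adjusted p = 0.719 from limma) and was -0.14 without both arrays of number 1. This interval leaves out a doubling or a halving of *Erbb2* between the sorts.

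*Egfr*, the receptor for EGF, TGF-alpha and amphiregulin, was at 5.26, 5.28 and 5.24 on the Sox9-GFP high arrays and at 5.30, 5.31 and 5.50 on the Sox9-GFP low arrays. The sorts did not overlap, but all 6 values lay just above the array medians and the gap between the sorts was small. The difference was -0.11 (95% confidence interval -0.47 to 0.25, adjusted p = 0.781 from limma).

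*Hbegf* encodes heparin-binding EGF-like growth factor, a ligand of EGFR and ERBB4. It was at 14.31, 13.32 and 13.99 on the Sox9-GFP high arrays and at 13.85, 12.16 and 13.20 on the Sox9-GFP low arrays. In both sorts array 1 was highest and array 2 lowest, the sorts overlapped, and the Sox9-GFP high array was the higher one within each number, by 0.46, 1.15 and 0.79. The means were 13.87 ± 0.51 in Sox9-GFP high and 13.07 ± 0.85 in Sox9-GFP low cells (SD, n = 3 each), a difference of 0.80 or 1.74-fold. Without a block the standard error was 0.39 and the 95% confidence interval -0.08 to 1.68 (adjusted p = 0.295 from limma). Blocked by array number, the same difference had a standard error of 0.19, an interval of 0.37 to 1.23 and an adjusted p of 0.0268. Left out in turn without the block, the arrays moved it between 0.35 (without Sox9-GFP low replicate 2) and 1.19 (without Sox9-GFP low replicate 1).

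**Figure D2:**
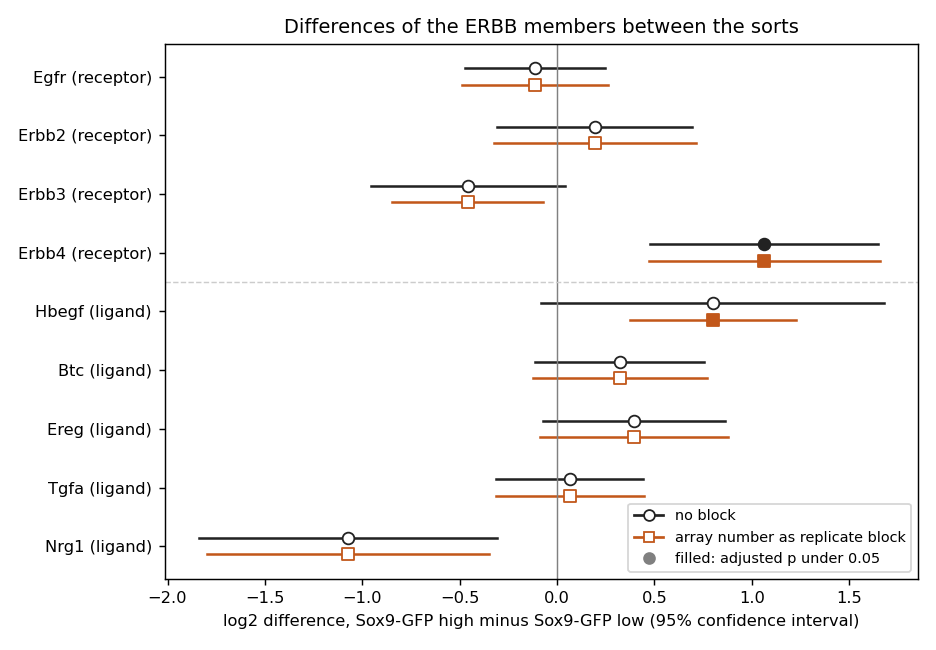
Log2 difference between the sorts (Sox9-GFP high minus low, horizontal axis) of each member with its 95% confidence interval from limma, without a block (circles) and blocked by array number (squares); filled symbols have an adjusted p under 0.05. *Erbb4* is filled in both fits, *Hbegf* only with the block, where its interval is 0.37 to 1.23 and not -0.08 to 1.68, and the interval of *Nrg1* lies below 0 although its adjusted p is 0.0983.

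*Btc* encodes betacellulin, another ligand of EGFR and ERBB4. It was at 9.21, 9.47 and 9.04 in Sox9-GFP high cells and at 9.14, 8.67 and 8.95 in Sox9-GFP low cells. Within each number the Sox9-GFP high array was the higher one, mostly through number 2 (0.80, beside 0.08 and 0.09), and the sorts overlapped. The difference was 0.32 (95% confidence interval -0.11 to 0.76, adjusted p = 0.414 from limma).

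*Ereg*, epiregulin, also a ligand of EGFR and ERBB4, had values of 5.11, 4.68 and 4.92 in Sox9-GFP high cells and 4.37, 4.86 and 4.29 in Sox9-GFP low cells. *Tgfa*, TGF-alpha, a ligand of EGFR, had 2.97, 3.18 and 3.08 in Sox9-GFP high cells and 3.05, 3.12 and 2.86 in Sox9-GFP low cells. Both genes lay below the array median on all 6 arrays, where background, which the values do not give, cannot be told from signal, and the sorts overlapped. The differences were 0.40 for *Ereg* (95% confidence interval -0.07 to 0.86, adjusted p = 0.333 from limma) and 0.07 for *Tgfa* (adjusted p = 0.888).

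*Nrg1* encodes neuregulin 1, the ligand of ERBB3 and ERBB4, which in the gland is known from basal and stromal cells. Its log2 values were 5.17, 5.45 and 4.81 on the Sox9-GFP high arrays and 5.48, 6.16 and 7.02 on the Sox9-GFP low arrays. All Sox9-GFP high arrays were below all Sox9-GFP low arrays, by a narrow gap between Sox9-GFP high array 2 and Sox9-GFP low array 1 and a wide one for number 3. Only 4 of the 6 arrays lay above the array median, and the Sox9-GFP high values were near it, where signal cannot be told from background. The means were 5.15 ± 0.32 in Sox9-GFP high and 6.22 ± 0.77 in Sox9-GFP low cells (SD, n = 3 each), a difference of -1.07 (standard error 0.34, 95% confidence interval -1.84 to -0.31) or 2.10-fold. It did not pass, with an adjusted p of 0.0983 from limma without a block and 0.0652 with it. It passed in 1 of the 9 reduced fits, without Sox9-GFP low replicate 1 (difference -1.44, adjusted p = 0.0237), and the difference was -0.67 when Sox9-GFP low replicate 3 was dropped (adjusted p = 0.228) and -0.51 when both arrays of number 3 were (adjusted p = 0.486).

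Markers of stromal, vascular and basal cells were read beside *Nrg1*. Of 6 fibroblast markers, 1 was lower in Sox9-GFP high cells and 0 were higher, and their summed log2 level was 9.31 to 10.15 in Sox9-GFP high and 11.48 to 11.98 in Sox9-GFP low cells. The summed level was carried by *Dcn*, decorin, at -2.22 (adjusted p = 0.00122), while the collagens *Col1a1*, *Col1a2* and *Col3a1* differed by -0.01, 0.32 and 0.14. Of the 6, *Col1a2*, *Col3a1* and *Pdgfrb* lay below the array median on all arrays and *Col1a1* lay near it, where signal cannot be told from background. Of 9 basal and myoepithelial markers, 0 were called without a block (1 higher, *Mylk*, with it), at a summed level of 14.50 to 15.11 in Sox9-GFP high and 14.07 to 14.54 in Sox9-GFP low cells. This sum was carried by *Krt14*, at 0.55 (adjusted p = 0.159 from limma). The differences of the 9 ran from -0.64 (*Acta2*) to 2.53 (*Mylk*) with a median of 0.11, and 4 of the 9 lay below the array median on all arrays. Of 4 adipocyte markers 0 were called, at a summed level of 10.20 to 12.13 in Sox9-GFP high and 11.92 to 13.21 in Sox9-GFP low cells, which *Fabp4* carried (-1.42, adjusted p = 0.104), while *Adipoq*, *Plin1* and *Lep* were below the array medians on all arrays. Of 5 endothelial markers 0 were called, at 6.84 to 7.25 in Sox9-GFP high and 6.78 to 7.51 in Sox9-GFP low cells. No marker was at 0 on this log2 scale, and the part of these cells in the result for *Nrg1* was not tested.

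**Figure D3:**
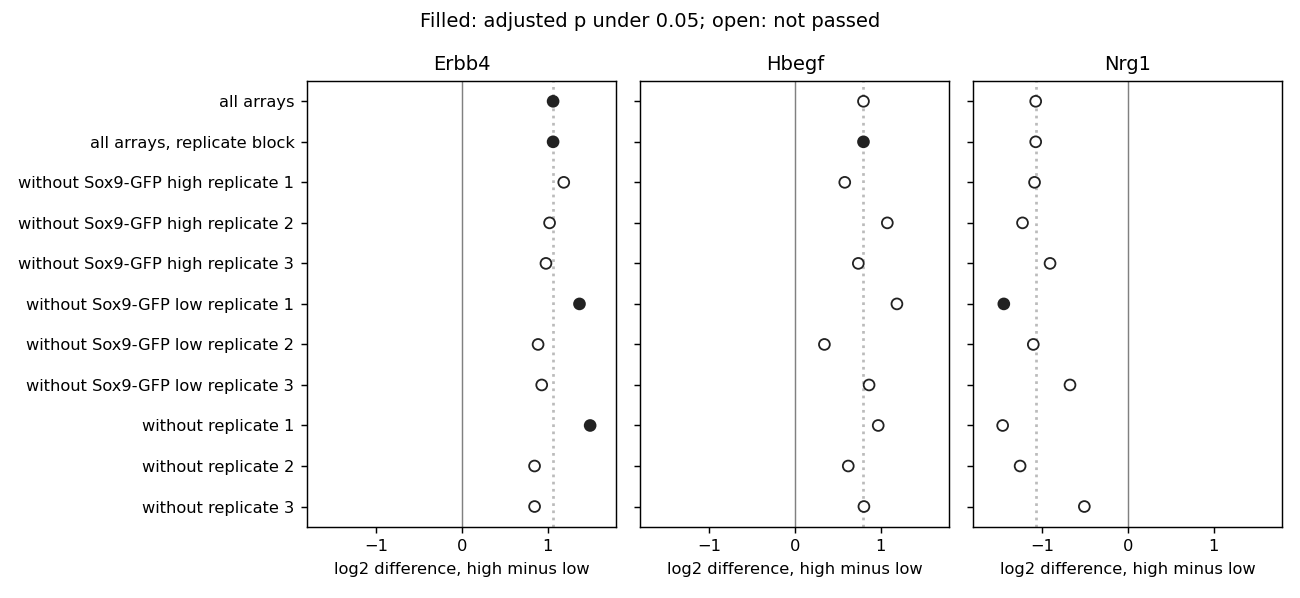
Log2 difference between the sorts (Sox9-GFP high minus low, horizontal axis) of *Erbb4*, *Hbegf* and *Nrg1* with all arrays, blocked by array number, and without 1 array or both arrays of 1 number (rows, each without a block); filled points have an adjusted p under 0.05 in limma and the dotted line is the difference with all arrays. *Erbb4* stays positive, between 0.85 and 1.50, and passes in 2 of the 9 reduced fits, and *Nrg1* stays negative and passes in 1.

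Of 112 further genes of the pathway, listed from textbook knowledge in 7 groups, 104 were measured. In limma without a block 11 were higher (10.6%, beside 4.0% of all probe sets), 8 were lower (7.69%, beside 3.20%) and 85 did not pass. Their median difference was 0.07, against 0.01 over all probe sets. The 4 receptors had a median difference of 0.04 and the 5 ligands of 0.32. The counts of each list below stand beside the same shares of all probe sets, 4.0% higher and 3.20% lower, or 6.32% and 4.99% with the replicate block. Most of the listed genes lay above the array median on all arrays, whereas these shares include dim probe sets, so the 2 were not compared at like brightness. With the dimmest 33% of probe sets left out, fewer were tested, yet 929 were higher and 740 lower. The counts of the further pathway genes stayed at 11 and 8.

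Among the other ERBB ligands, 0 of 5 passed in either direction, and *Epgn*, epigen, a ligand of EGFR, had the largest difference. *Epgn* was at 9.50, 9.32 and 8.76 in Sox9-GFP high cells and at 9.06, 8.15 and 8.48 in Sox9-GFP low cells, a difference of 0.63 (adjusted p = 0.218 from limma). Those of the neuregulins *Nrg4*, *Nrg2* and *Nrg3*, which lay below the array median on all 6 arrays, were 0.22, -0.13 and -0.12. Of 10 genes for the release of ligands, 1 was higher, *Timp3*, an inhibitor of the ADAM proteases that cut the precursors. *Timp3* was at 7.23, 6.13 and 7.98 in Sox9-GFP high cells against 5.44, 4.54 and 5.90 in Sox9-GFP low cells, 3.54-fold higher (adjusted p = 0.0391). It passed in 3 of the 9 reduced fits, which had no block and in which its adjusted p reached 0.174. With all arrays and the replicate block its adjusted p from limma was 4.53e-04. Sox9-GFP low array 2 was below the array median. The protease *Adam8* (-0.45, below the median on all arrays) and the iRhoms *Rhbdf1* (0.34) and *Rhbdf2* (0.20), which carry ADAM17 to the cell surface, did not pass, with adjusted p of 0.508, 0.309 and 0.618.

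Of 27 feedback inhibitors and genes of receptor turnover, 4 were higher and 1 was lower, while 22 missed the threshold (with the replicate block, 4 higher and 3 lower). *Spry1*, Sprouty 1, an inhibitor of RAS-ERK signalling, was at 9.36, 8.93 and 8.96 in Sox9-GFP high cells and at 7.82, 7.08 and 6.72 in Sox9-GFP low cells, 3.68-fold higher (adjusted p = 0.00340 from limma). *Cblb*, a ubiquitin ligase of activated receptors, was at 14.32, 14.14 and 13.69 against 12.79, 12.51 and 12.57 in Sox9-GFP low cells, 2.69-fold higher (adjusted p = 0.00320). Both kept every array of the sorts apart and passed in all 9 reduced fits. *Dusp6*, the ERK phosphatase, was higher by 0.92 (adjusted p = 0.0149) and passed in 3 of these fits. *Socs5*, an adaptor for receptor degradation chosen after its values were seen, was higher by 0.70 (adjusted p = 0.0417) and passed in 1. *Usp8*, a deubiquitinase that acts on receptors in endosomes, fell by 0.80 (adjusted p = 0.0266) and passed in 1. The calls added by the block were the phosphatases *Dusp4* (-0.93, adjusted p = 0.207 without and 0.0283 with the block) and *Ptpn1* (-0.74, 0.0782 and 0.0211), of which *Ptpn1* was chosen after its values were seen.

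*Irs1* and *Pik3r1*, which feed the PI3K route, had the largest falls of the adaptor and relay lists. *Irs1*, a docking protein best known from the insulin receptor, was at 8.01, 7.83 and 7.90 in Sox9-GFP high cells and at 9.93, 10.45 and 10.96 in Sox9-GFP low cells, 5.80-fold lower (adjusted p = 5.54e-04 from limma). *Pik3r1*, the regulatory p85-alpha subunit of PI3K, was at 11.16, 10.48 and 9.88 against 13.31, 13.09 and 12.58 in Sox9-GFP low cells, 5.61-fold lower (adjusted p = 0.00171). Both genes passed in all 9 reduced fits, and the sorts lay far apart for each.

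Of 20 adaptors and scaffolds, 2 were higher, 2 were lower and 16 did not pass. Beside *Irs1*, *Nck1*, an adaptor to the actin machinery, fell by 0.91 (adjusted p = 0.0143), while *Eps8*, a substrate of EGFR that acts on actin, was higher by 1.07 (adjusted p = 0.0168, with 4 of its 6 arrays above the array median) and *Ptpn11*, the phosphatase SHP2, by 0.85 (adjusted p = 0.0389). *Nck1* passed in 3, *Eps8* in 5 and *Ptpn11* in 0 of the 9 reduced fits. With the replicate block 4 were lower, adding *Grb7*, an adaptor of ERBB2 (-0.82, adjusted p = 0.0804 without and 0.0248 with it), and *Sos2*, an activator of RAS (-0.77, 0.0666 and 0.0335), both chosen after their values were seen.

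Of 16 measured relays of the RAS-ERK, PI3K and STAT5 routes, 2 were higher, 2 were lower and 12 did not pass. *Stat5a*, the transcription factor that ERBB4 and the prolactin receptor activate in the gland, was at 8.39, 7.94 and 7.96 in Sox9-GFP high cells and at 9.59, 8.92 and 8.83 in Sox9-GFP low cells, 2.02-fold lower (adjusted p = 0.0300 from limma). No Sox9-GFP high array reached the Sox9-GFP low arrays, the opposite order to *Erbb4*, and *Stat5a* passed in 2 of the 9 reduced fits. *Akt2*, a kinase below PI3K, was higher by 0.91 (adjusted p = 0.0435) and *Pik3r3*, the p55-gamma subunit of PI3K, by 0.76 (adjusted p = 0.0286), and they passed in 2 and 1 of these fits.

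Among the genes that ERK signalling induces, the 1 call in each direction without a block was near the shares of all probe sets, 4.0% and 3.20%. Of 22 measured, 7 of which are also in the feedback list, 1 was higher (*Dusp6*), 1 was lower (*Fos*) and 20 missed the threshold (with the replicate block, 2 higher and 2 lower). *Fos*, an early response factor and a subunit of AP-1, was at 11.78, 12.08 and 10.55 in Sox9-GFP high cells and at 13.26, 13.16 and 12.37 in Sox9-GFP low cells, 2.75-fold lower (adjusted p = 0.0469 from limma), and passed in 3 of the 9 reduced fits. *Egr2*, another early response factor, was at 14.41, 13.31 and 14.55 against 13.27, 12.10 and 13.38 in Sox9-GFP low cells. *Egr2* overlapped between the sorts, but within every number the Sox9-GFP high array had the higher value, by 1.17 on average (adjusted p = 0.110 without and 0.00223 with the block).

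**Figure D4:**
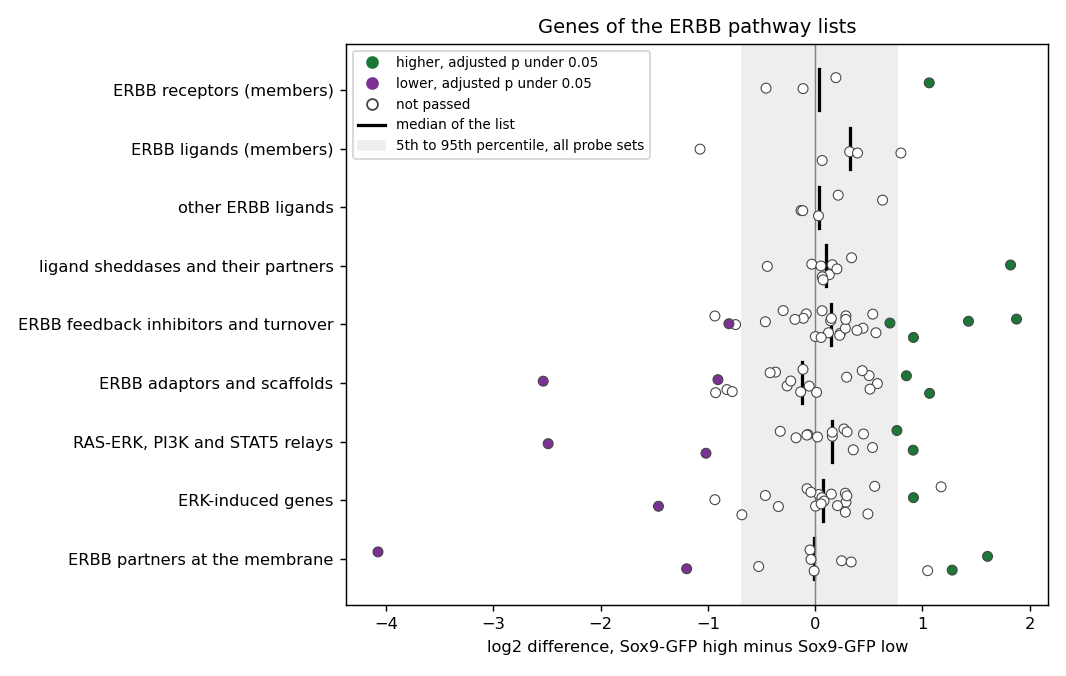
Log2 difference between the sorts (Sox9-GFP high minus low, horizontal axis) of every measured gene of the members and the 7 further lists (rows, points spread vertically only for legibility), with black bars for list medians and a grey band for the 5th to 95th percentile of all probe sets (-0.68 to 0.76). Green points are higher and purple points lower at an adjusted p under 0.05 in limma without a block, 11 and 8 genes over the further lists (*Dusp6* is drawn in 2 of them), and the medians lie between -0.12 and 0.16 in these lists.

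At the membrane, 2 of 11 partners of ERBB receptors were higher and 2 were lower (3 higher with the replicate block). The higher ones were heparan sulfate proteoglycans, a class that holds ligands such as HB-EGF and neuregulins at the cell surface. *Gpc1*, glypican 1, was at 8.80, 7.85 and 7.89 in Sox9-GFP high cells and at 7.26, 5.90 and 6.56 in Sox9-GFP low cells, 3.05-fold higher (adjusted p = 0.0234 from limma). *Sdc1*, syndecan 1, was at 14.49, 13.65 and 14.09 against 13.11, 12.09 and 13.20 in Sox9-GFP low cells, 2.43-fold higher (adjusted p = 0.0383). The sorts did not overlap for either gene, each passed in 4 of the 9 reduced fits, and *Hspg2*, perlecan, chosen after its values were seen, passed with the block (1.05, adjusted p = 0.0776 without and 0.0120 with it). The lower ones were mucins. *Muc4*, a binding partner of ERBB2, was at 4.74, 5.75 and 5.41 in Sox9-GFP high cells and at 8.68, 9.62 and 9.83 in Sox9-GFP low cells. The Sox9-GFP high values were near the array medians, where signal cannot be told from background, so the measured difference of -4.08 (adjusted p = 2.96e-04) may understate the fall. *Muc1*, a partner of EGFR, fell by 1.20 (adjusted p = 0.00700), and the mucins passed in 9 (*Muc4*) and 7 (*Muc1*) of these fits. The fall of 6 of 8 progenitor markers, given above, ran alongside the calls of all these lists, and its part in them was not tested.

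Over the 6 arrays, the genes whose values followed *Erbb4* most closely among 17074 searched were *Etaa1* (Pearson's r = 0.998), *Fkbp2* (0.994) and *Defb29* (0.987), and 51 genes had an r above 0.95. For *Nrg1* they were *Kyat1* (0.990), *Tspo2* (0.990) and *Extl1* (0.985), and 27 genes had an r above 0.95. These are descriptions over 6 arrays that share the difference between the sorts.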

How the data were processed

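RNA of luminal mammary cells in 2 sorts was measured on one-colour arrays, with 3 arrays each. Per array, the authors deposited 1 log2 value for each of 22206 probe sets. The labels name the GeneChip WT PLUS labelling. The software, normalization and genome build behind the values were not given in the sources used here. No signal over background is given, and the number of arrays limits the precision.

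Probe sets were named from the array's gene table (19572 with 1 symbol, 0 with several, 2634 unnamed here), and all 19572 entries were matched by gene identifier to RefSeq. A gene with several probe sets was represented by the brightest on average over the 6 arrays. The deposited values of all probe sets were fitted with limma 3.58.1 (R 4.3.3; lmFit, eBayes), two-sided and without a block, since the study's statistics section names an unpaired test. Benjamini-Hochberg adjustment was over all probe sets at a threshold of 0.05. A fold is the larger over the smaller group on the linear scale. The fits were tested on simulated data.

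The titles number the arrays 1 to 3 in each sort. An array's deviation from its sort's mean correlated at 0.236, 0.232 and 0.218 with that of the equally numbered array and at -0.06 or below with the others. The numbers were therefore taken to pair the arrays, and blocked fits are given where they change a call. The reduced fits, which dropped arrays, had no block.

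The members and all lists were chosen with earlier results of these data known. Named genes are the members and at most 4 genes per pathway list, called genes first by size of difference, besides *Sox9*, cell type markers and the genes most like *Erbb4* and *Nrg1*. *Socs5*, *Ptpn1*, *Grb7*, *Sos2* and *Hspg2* were added outside this rule, with their values already seen. Alternatives were the replicate block, quantile normalization, median centring, a filter on the dimmest 33% of probe sets, a trended robust prior, array weights, the methods' t-test, dropping single arrays or numbers and averaging a gene's probe sets. Promoters came from RefSeq (GRCm38.p6).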

Additional observations from a re-analysis of the deposited data

How the results depend on the processing

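The count of members called higher was 1 without a block, 2 with the replicate block, and 0 by the methods' t-test with Benjamini-Hochberg adjustment, which called 1 at an unadjusted p under 0.05. It ranged from 0 to 1 over the 9 reduced fits (1 array or 1 number dropped), and the count called lower, 0 with all arrays, also ranged from 0 to 1. Of the further pathway genes, 11 were higher and 8 lower without a block, 13 and 12 with it, 17 and 11 by the unadjusted t-test and 0 and 0 by the adjusted one, with a range of 2 to 11 higher and 3 to 7 lower over the reduced fits. The block changed no call of a member or pathway gene beyond those given above. Among genes called without it that passed in few reduced fits, the adjusted p from limma with the block was 9.57e-04 for *Gpc1*, 0.00172 for *Fos*, 0.00302 for *Sdc1* and 0.00546 for *Stat5a*. It was 0.0197 for *Usp8*, 0.0223 for *Pik3r3*, 0.0290 for *Socs5* and 0.0325 for *Erbb4*. The reduced fits, without the block, did not test how these blocked results depend on single arrays. *Socs5* missed the threshold with quantile normalization (adjusted p = 0.0520) and with the trended prior (0.0706), *Ptpn11* with quantile normalization (0.0545), and *Sos2* passed with quantile normalization (0.0474) and array weights (0.0370). For *Erbb4* the adjusted p lay between 0.0325 and 0.0496 under the replicate block, quantile normalization, median centring, the filter on dim probe sets, the trended prior, the array weights and the mean over probe sets, and the adjusted t-test gave 0.251. Over all probe sets, 888 were higher and 711 lower without a block, 1404 and 1108 with it, 1 and 2 by the adjusted t-test (2118 and 1647 unadjusted), and 231 to 672 and 316 to 563 in the reduced fits. *Erbb2* changed direction without replicate 1 (-0.14, range -0.14 to 0.42), *Tgfa* without Sox9-GFP low replicate 3 (-0.0103) and without replicate 3 (-0.0136, range -0.0136 to 0.143), and *Nrg3* without Sox9-GFP high replicate 2 (0.0372) and without replicate 2 (0.0364, range -0.275 to 0.0372). None of these 3 passed under any setting. The cause was not tested. Reduced fits have fewer arrays and no block. Values near or below the array medians (*Egfr*, *Ereg*, *Tgfa*, *Nrg2*, *Nrg3*, *Nrg4* and *Adam8*, and some arrays of *Nrg1*, *Timp3*, *Eps8* and *Muc4*) could not be set against background.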
